A study of Mus musculus with 12 samples.

Results

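Cluster 5 of the 28W spleen is a group of PD-1+CD44+CD8+ T cells that the authors set apart by clustering their single-cell transcriptomes. Its members were taken from the deposited cluster assignments, and it held 614 of the 6481 cells of that library, or 9.47% (8.77 to 10.2%, exact binomial 95% interval). The 3 libraries of the series together held 20510 cells. The files used here give the cluster no name, and none is given below. Its leading transcripts encoded the integrin chains *Itgb1* (CD29) and *Itga4* and the inhibitory receptor *Ctla4*. Interferon-stimulated transcripts stood above the other cells of the library but below the neighboring cluster 4, and cytotoxic transcripts stood far below the neighboring cluster 2.

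The study followed CD8+ T cells through lupus nephritis in female NZB/W F1 mice, the hybrid of the NZB and NZW strains, which develops a lupus-like kidney disease with age. The sort for PD-1+CD44+CD8+ T cells was made from 3 sources, namely the spleen of mice aged 12 weeks, called 12W spleen here, and the spleen and kidney of mice aged 28 weeks, called 28W spleen and 28W kidney. The labels name no treatment, and all mice were of this 1 strain, without an added allele. For the 28W spleen the sample titles give 28 weeks and the age field gives 12 weeks, and the titles were followed. Each group lists 4 samples, titled L001 to L004, that the deposited tables do not tell apart. Whether these are separate samples or sequencing lanes of 1 library is not given, and the number of mice is not given in the sources used here.

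Because cluster 5 thus comes from 1 library without replicates, no test was possible, and every interval covers counting error only. A cluster is also defined by the genes it is then described with, so differences between clusters are descriptions. Between the tables, 52 cell barcodes were shared by the 2 spleens, 8 of them in cluster 5, and 66 by the 28W spleen and kidney, 6 of them in cluster 5. The 12W spleen held 6894 barcodes, the 28W spleen 6481, the kidney 7135 and cluster 5 614. How many would be shared by chance was not computed. Removal of doublets is not described in the sources used here.

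PD-1 is a receptor that dampens T cell signaling and is induced by antigen, and CD44 marks T cells that have met antigen. CD8+ T cells that carry both can be memory, effector or exhausted cells, which differ in lymph node homing receptors, granzymes and the number of inhibitory receptors. Type I interferon, a cytokine prominent in lupus, switches on a broad antiviral program, and its transcripts can mark a T cell state of their own.

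Cluster 5 was deeply sampled. It held 3516835 unique molecular identifiers (UMIs, each standing for 1 captured transcript), 10.98% of the library, or 5728 per cell against 1020 to 12208 in the other 10 clusters. Levels are given below as counts per 1000000 UMIs of a cluster (CPM), and 3 counts, the limit that a count of 0 allows, correspond to 0.853 CPM. Mitochondrial transcripts took 1.12% of UMIs and ribosomal protein transcripts 32.4%, inside the range of the other clusters for both. Clusters 8, 10 and 11 were set aside in one comparison, since cluster 8 carried haemoglobin, cluster 10 B cell transcripts, and cluster 11 a mitochondrial share of 6.64%. Cluster 11 also had only 1288 UMIs per cell and 10.8% ribosomal protein transcripts.

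The transcripts of the sort were present. *Cd8b1* was at 1395 CPM (1356 to 1434) in cluster 5, the highest of the 11 clusters, against 227 to 1324 in the others. *Cd8a* was at 582 CPM and *Cd44* at 66.5 CPM, above all clusters but cluster 11 for *Cd44*. *Pdcd1*, which encodes PD-1, was at 37.2 CPM (31.1 to 44.2), the fifth level of 11 and close to the 34.4 CPM of the rest of the library. Cluster 9 had the highest *Pdcd1* level, 75.5 CPM. Of 19 T cell identity genes compared, none differed from the rest by 1.5-fold in either direction, among them *Cd3e* (1154 CPM) and *Thy1* (1072 CPM).

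The first comparison set cluster 5 against the summed UMIs of the other 10 clusters, as a log2 ratio of CPM + 10. Of 2812 genes with at least 50 CPM on either side, 111 (3.95%) were at least 1.5-fold higher in cluster 5 and 68 (2.42%) at least 1.5-fold lower, and the median of all compared genes was 0.077. The balance moved with the scaling, to 59 higher and 93 lower by the median gene ratio, 114 and 123 with a total without receptor, mitochondrial and ribosomal protein genes, and 34 and 84 against an unweighted mean of the clusters. Of the 111 higher genes, 8 were at their peak of all 11 clusters in cluster 5, against 53 of all 2812 compared genes. Cluster 11 alone exceeded cluster 5 for 74 of the 111. The lower side belonged largely to other cells, as 49 of the 68 genes peaked in cluster 6, 6 in cluster 8 and 8 in cluster 10. How often all compared genes fell below cluster 11 alone, or peaked in clusters 6, 8 and 10, was not computed. Without clusters 8, 10 and 11, 130 genes (4.64% of 2799) were higher, all 111 among them, and 59 (2.11%) were lower. Without the dividing cells of cluster 6 as well, 40 of 2731 genes (1.46%) were higher, 33 of them from the original 111, and 7 (0.256%) were lower. Against an unweighted mean of the clusters, 27 of the 111 kept their call, and 10 of the 20 highest did.

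Gene lists are described below by their counts of compared genes and by 2 medians of the log2 ratio, one over all genes of the list in the table, low genes included, and one over its compared genes. Only the second is like the 0.077 of all compared genes. Counts against the rest are to be set beside 3.95% higher and 2.42% lower among all compared genes. Those against cluster 2 are to be set beside 2.90% higher and 1.06% lower. Counts of list genes simply above the rest have no such share beside them, since it was not computed. With a median of 0.077, most compared genes were above the rest.

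**Figure D1:**
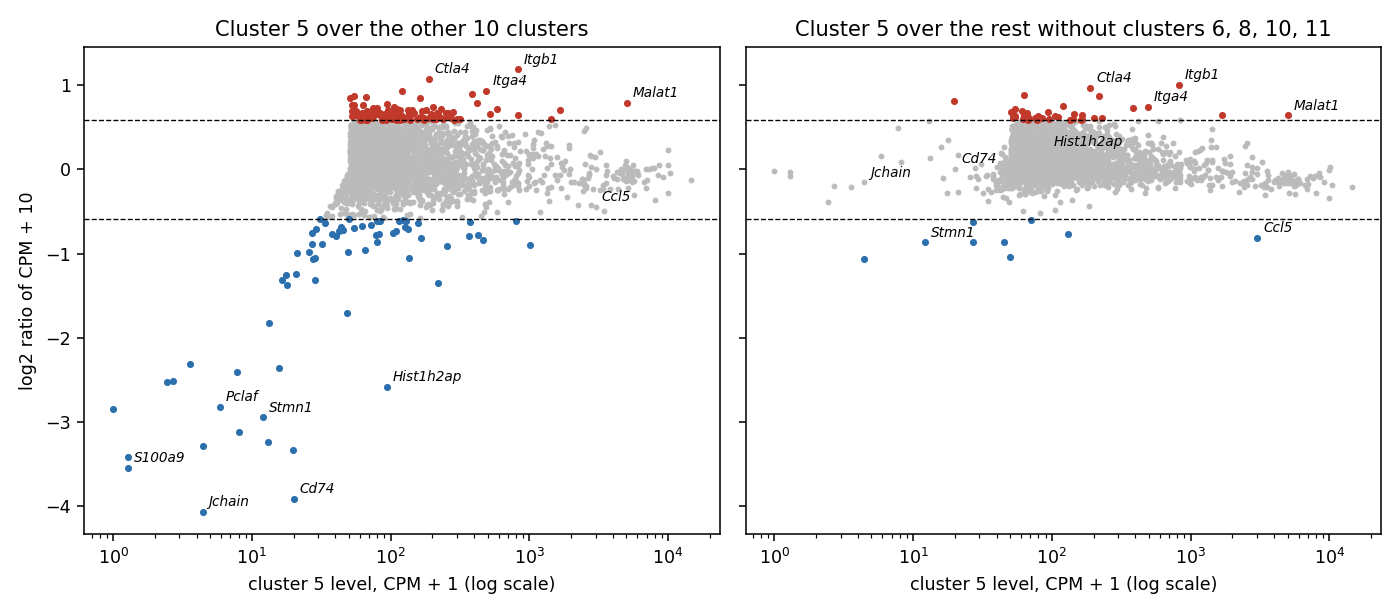
Each point is a gene with at least 50 CPM in cluster 5 or in the other 10 clusters together, with its level in cluster 5 (CPM + 1, log scale) against its log2 ratio of CPM + 10 over the other 10 clusters (left) or without clusters 6, 8, 10 and 11 (right). Dashed lines mark 1.5-fold, with red points above and blue points below, and the deep lower tail on the left, led by *Jchain* and *Cd74*, is gone on the right.

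*Itgb1* led the higher genes. It lies on chromosome 8 (GRCm38, 128685654 to 128733200) and encodes CD29, the integrin beta chain that pairs with several alpha chains to bind matrix and vascular ligands. Its level was 821 CPM (791 to 851) in cluster 5, 660 in cluster 4, 603 in cluster 2, 387 in cluster 9, 374 in cluster 1, and 124 to 266 in clusters 3, 6, 7, 8 and 10. Only cluster 11 was higher, at 1506 CPM. Against the rest of the library, at 354 CPM, the log2 ratio was 1.19, and it was 0.83 when the other clusters were averaged without weights. The log2 ratio over cluster 4 was 0.31, under 1.5-fold, with a counting interval of 0.23 to 0.39 without the added 10 CPM.

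*Itga4* (chromosome 2, 79255426 to 79333123), whose alpha chain joins CD29 in a receptor for inflamed endothelium, followed the same order at the top. It was at 489 CPM (467 to 513) in cluster 5, 424 in cluster 4, 354 in cluster 2, 107 to 243 in clusters 1, 3, 6, 7, 8, 9 and 10, and 1376 in cluster 11. The log2 ratio over the rest was 0.93, and against an unweighted mean of the clusters it was 0.50, below 1.5-fold. *Itgb7*, the other beta partner of *Itga4*, did not reach 1.5-fold, with 457 CPM against 358. *Ahnak*, a large scaffold protein often high in memory cells, was at 204 CPM against 130.

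The CD29 list held 16 genes of adhesion and the S100, annexin and galectin families. Of its 14 compared members, *Itgb1*, *Itga4*, *Il7r* and *Ahnak* were at least 1.5-fold higher and none lower, and the median log2 ratio was 0.19 over all 16 genes and 0.27 over the compared ones. Of the 4 calls, 2 were kept without clusters 6, 8, 10 and 11, where the median over all 16 was 0.029, and 2 against an unweighted mean. The study names *Itgb1*, *Il7r* and *Klf2* as CD29 genes from these samples, so the list is not independent of them. Against cluster 2, 7 of 15 compared members were at least 1.5-fold lower in cluster 5 and none higher, among them the calcium-binding *S100a4* (108 CPM against 292) and *S100a6* (579 against 1186) and the galectins *Lgals1* (561 against 1001) and *Lgals3* (20.2 CPM, log2 ratio -1.79). The log2 ratio of *Itgb1* over cluster 2 was 0.44.

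**Figure D2:**
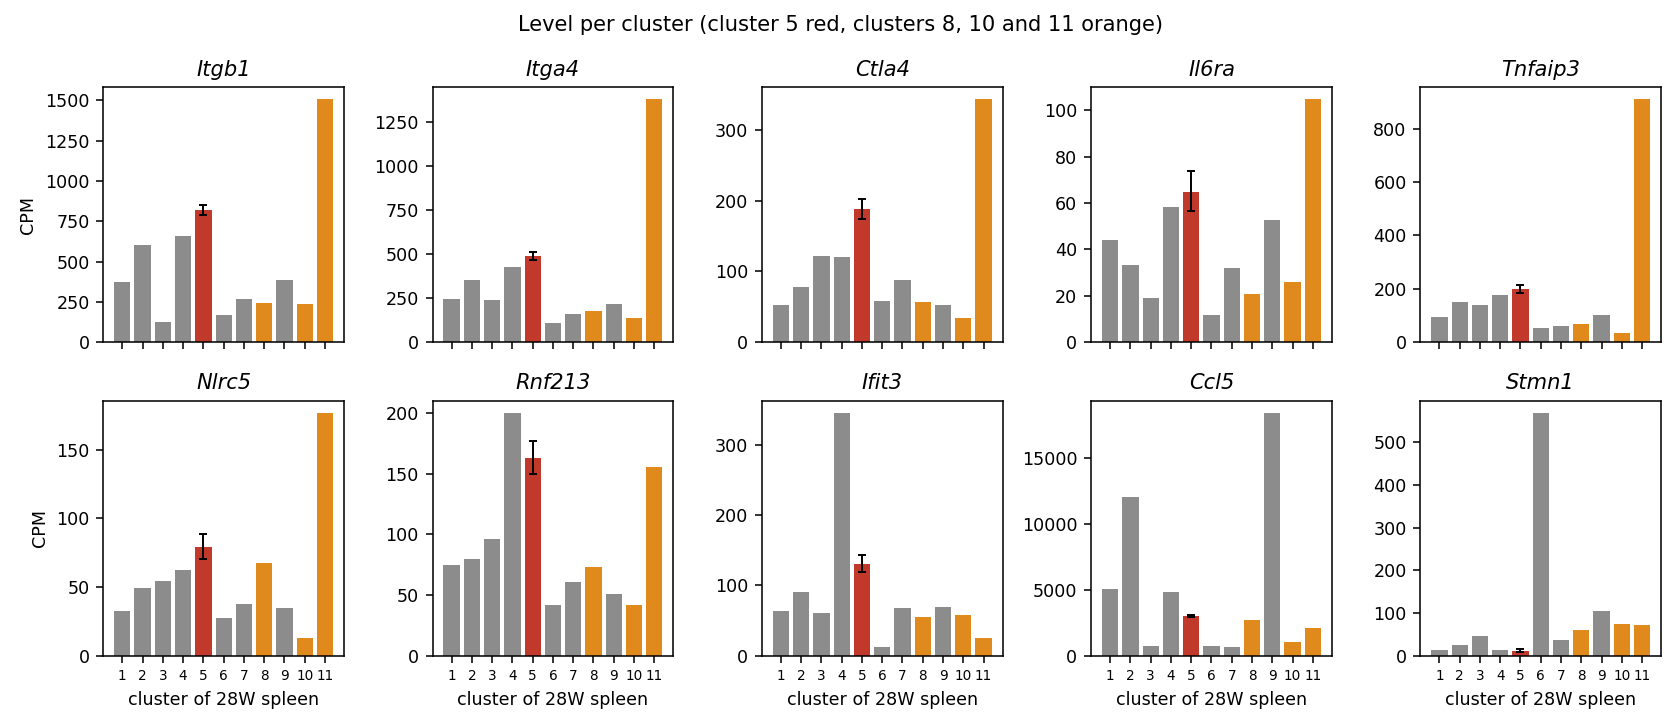
Bars give the level (CPM, linear axis from 0) of 10 genes in each of the 11 clusters of the 28W spleen. Cluster 5 is red with its exact Poisson 95% interval, clusters 8, 10 and 11 are orange, and *Itgb1*, *Itga4* and *Ctla4* in cluster 5 are below cluster 11 only.

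*Ctla4* (chromosome 1, 60887000 to 60915832), an inhibitory receptor that competes with CD28 for its ligands, had the second highest ratio. Its level was 188 CPM (174 to 203) in cluster 5, 122 in cluster 3, 120 in cluster 4, 87.6 in cluster 7, 78.2 in cluster 2, 34.7 to 58.6 in clusters 1, 6, 8, 9 and 10, and 343 in cluster 11. Over the rest the log2 ratio was 1.07, over cluster 4 it was 0.61, and over cluster 2 it was 1.17. *Lag3*, which binds MHC class II, was at 165 CPM (152 to 179.5) against 105 in the rest, again exceeded by cluster 11 alone. Its log2 ratio of 0.61 fell below 1.5-fold against an unweighted mean (0.47), without clusters 6, 8, 10 and 11 (0.53) and with scaling by the median gene ratio (0.54). Of the other 10 inhibitory receptors 4 were above the rest, none by 1.5-fold, among them *Vsir* (VISTA) at 138 CPM against 105 and *Cd200*, a ligand counted on this list, at 62.0 against 40.2. The log2 ratio of *Cd200* was 0.52, and it passed 1.5-fold without clusters 6, 8, 10 and 11 (0.89). Below the rest, *Tigit* was at 19.3 CPM against 27.1 in the rest and 70.4 in cluster 2, *Cd160* at 16.5 against 32.7, *Entpd1* at 3.70 against 6.91, and *Havcr2* (TIM-3) had 0 UMIs, which allows up to 0.853 CPM. Of 4 compared members, 2 were at least 1.5-fold higher than the rest and none lower, and the median was 0.57 over these 4 and 0.011 over all 12. The summed level of the 12 was 654 CPM against 461 in the rest, the second of 11 clusters.

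Most factors tied to effector and exhausted states were near the level of the library. None of 8 compared members was 1.5-fold higher or lower than the rest. *Tox*, needed for the exhausted state, was at 92.7 CPM (82.9 to 103) against 69.8, with 54.5 in cluster 4 and 133 in cluster 3. *Tbx21* (T-bet) was at 50.6 CPM against 35.9 and *Ikzf3* at 193 against 136. *Eomes* was at 48.1 CPM against 76.0, a log2 ratio of -0.57, just short of 1.5-fold lower. It passed 1.5-fold with a pseudocount of 1 CPM (-0.65) and with scaling by the median gene ratio (-0.63). The same held for a total without receptor, mitochondrial and ribosomal protein genes (-0.64) and without clusters 8, 10 and 11 (-0.59). It did not against an unweighted mean (-0.47) or without clusters 6, 8, 10 and 11 (-0.39). *Zbtb32*, a repressor induced in activated lymphocytes, was highest of all 11 clusters, at 83.3 CPM (74.0 to 93.4) against 17.9 to 73.0. *Icos*, a costimulatory receptor, was at 147 CPM against 89.0, and it was the only 1.5-fold higher gene among 6 compared antigen receptor response genes. That call was lost without clusters 6, 8, 10 and 11 (0.58), where *Cd200*, also on this list, passed 1.5-fold instead (0.89). The early response gene *Nr4a1* was at 9.10 CPM against 26.5 and *Tnfrsf9* (4-1BB) at 7.11 against 42.1, both too low in the library to be compared under the minimum. The median over all 20 genes was 0.048, and it turned to -0.002 with scaling by the median gene ratio and to -0.059 with an unweighted mean of clusters.

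Interferon-stimulated genes placed cluster 5 second in the library. Summed over 28 genes, their level was 8234 CPM (8139 to 8329), below the 10735 of cluster 4 and above the 3390 to 6865 of the other 9 clusters. Of the 28 genes, 27 were above the rest and none of the 20 compared was 1.5-fold lower. Of the 20 compared, 5 were at least 1.5-fold higher, *Rnf213*, *Slfn1*, *Slfn5* and *Slfn8* among them. The median was 0.50 over the 20 compared genes and 0.48 over all 28. Without clusters 6, 8, 10 and 11, the median over all 28 was 0.26 and 1 of the 5 calls was kept, that of *Rnf213* (0.65).

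*Rnf213*, an antiviral ubiquitin ligase, was at 163 CPM, with 200 in cluster 4, 155 in cluster 11 and 41.6 to 96.5 elsewhere. The Schlafen gene *Slfn5* was at 94.4 CPM, with 168 in cluster 4, 93.9 in cluster 11 and at most 57.2 elsewhere. *Slfn8* was at 134 CPM, with 177 in cluster 4 and 213 in cluster 11.

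Against cluster 4 no gene of the list was above 0, and *Slfn5*, at -0.77, was 1.5-fold lower. The difference was larger for other members. *Ifit3* was at 130 CPM (118 to 142) in cluster 5 and 345 in cluster 4, and at 12.4 to 90.8 in all other clusters. The ubiquitin-like *Isg15* was at 198 CPM against 513 in cluster 4 and 43.3 to 172 elsewhere. *Rsad2* (viperin) was at 16.2 CPM against 82.3 in cluster 4, though cluster 8 stood at 149, and *Mx1* was at 20.8 CPM against 71.0, a log2 ratio of -1.40. The deoxynucleotide enzyme *Samhd1*, by contrast, was at 417 CPM against 236 in the rest, and its ratio to cluster 4 was -0.13.

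Interferon-induced GTPases, which attack vacuoles of intracellular pathogens, followed the first group. All 13 were above the rest, and *Gbp7*, *Gbp8* and *Irgm1* were the 3 of 9 compared that reached 1.5-fold, with none lower. *Gbp7* was at 105 CPM (95.03 to 117) against 61.8, *Gbp8* at 72.2 against 43.8, and *Irgm1* at 51.5 against 29.6. The median was 0.51 over all 13 and 0.34 over the 9 compared. Without clusters 6, 8, 10 and 11 none of the 3 calls was kept and the median over all 13 was 0.31. In summed level cluster 4 was again the only cluster with a higher sum, 1640 CPM against 1240. *Nlrc5*, which activates MHC class I genes, was at 79.0 CPM against 43.5, exceeded by cluster 11 alone (log2 ratio 0.74, and 0.44 against an unweighted mean), while the class I list as a whole had a median of 0.21 and this single 1.5-fold gene among 17.

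To show the sequence that interferon-stimulated promoters are known for, promoters of RefSeq (GRCm38.p6, from 250 bases before to 50 after the start) were searched on both strands for GAAANNGAAA, the core of the interferon-stimulated response element. It stood in 1079 of 27025 promoters, 3.99%. Of the 8 higher genes on the 2 interferon lists, 6 had a promoter in the set, and 4 of these held the motif, 66.7%. The whole list of 28 interferon-stimulated genes held it in 12 of 19 promoters, 63.2%, and all compared genes in 113 of 2238, 5.05%. Of the other higher genes, 2 of 78 promoters held it, 2.56%, those of *Dpp4* and *Trim26*. A match is a description of letters and not evidence of binding. The 4 windows are shown 5′ to 3′ on the strand of the gene, with a match in capitals, as TTTCNNTTTC where it runs on the other strand. In the *Irgm1* window another match overlaps the marked one and runs on into the lower-case letters.
*Slfn8*, chr11:83020834-83020873, minus strand, 48 bases before the start: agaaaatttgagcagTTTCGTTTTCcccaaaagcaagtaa
*Slfn5*, chr11:82951932-82951971, plus strand, 155 bases before the start: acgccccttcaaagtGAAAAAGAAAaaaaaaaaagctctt
*Irgm1*, chr11:48871426-48871465, minus strand, 30 bases before the start: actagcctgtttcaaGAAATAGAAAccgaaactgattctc
*Gbp7*, chr3:142530268-142530307, plus strand, 53 bases before the start: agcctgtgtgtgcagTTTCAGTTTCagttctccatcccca

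Of 12 compared cytokine receptors, 4 were at least 1.5-fold higher than the rest and none lower, against 3.95% higher among all compared genes. The median was 0.38 over these 12 and 0.20 over all 21. Without clusters 6, 8, 10 and 11 1 of the 4 calls was kept, that of *Il6ra* (0.68), which itself fell just below 1.5-fold against an unweighted mean (0.57). *Il6ra*, the receptor chain for interleukin-6, was at 64.8 CPM (56.7 to 73.8) in cluster 5, 58.1 in cluster 4, 52.7 in cluster 9, 105 in cluster 11 and 11.8 to 43.9 elsewhere. *Il7r*, which keeps memory cells alive, was at 521 CPM (497 to 545), below clusters 4 (760) and 1 (638) and above 54.0 to 454 in the other clusters. *Il18r1* was at 75.1 CPM against 44.5, and *Ifnar1*, a chain of the type I interferon receptor, at 73.1 against 43.5. The log2 ratio of *Ifnar1* over cluster 4 was 0.55, just under 1.5-fold. Feedback inhibitors of cytokine signals had a median of 0.25 over all 7 genes with none of 4 past 1.5-fold, *Socs1* being at 83.6 CPM against 66.4.

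**Figure D3:**
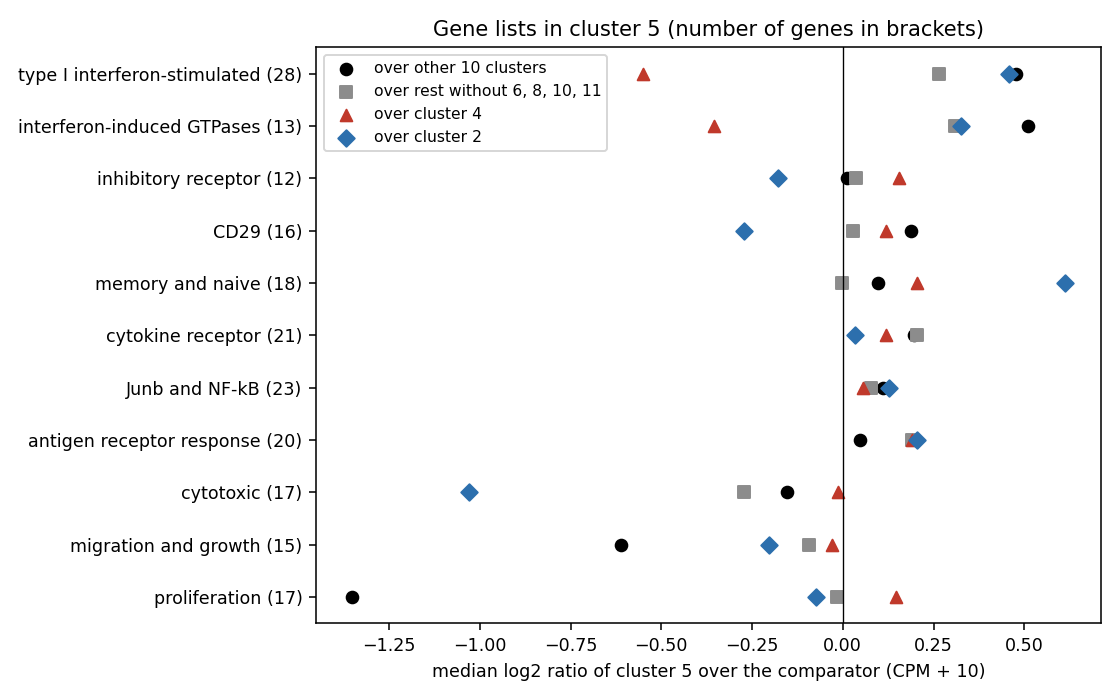
Points give the median log2 ratio of CPM + 10 over all genes of a list, low genes included, in cluster 5, against the other 10 clusters (circles), the same without clusters 6, 8, 10 and 11 (squares), cluster 4 (triangles) and cluster 2 (diamonds). The interferon-stimulated list stood at 0.48 over the rest and -0.55 against cluster 4, and the cytotoxic list at -1.03 against cluster 2.

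Nearness to the other clusters was measured as the root mean square (RMS) difference of log2(CPM + 10) over 4875 genes. Cluster 4 was nearest at 0.24, followed by cluster 2 at 0.28 and cluster 3 at 0.33. The other clusters were at 0.41 to 1.01. A Pearson correlation of the same values also placed cluster 4 first, at 0.991.

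Cluster 5 and cluster 4 differed in few genes. Of 2730 compared, 21 (0.769%) were at least 1.5-fold higher in cluster 5 and 22 (0.806%) lower. The median gene was 0.14 above cluster 4, and ribosomal protein transcripts took 36.4% of UMIs in cluster 4 against 32.4%, so each ratio here is to be set beside that median. Among the 22 lower genes were 13 of the 25 compared interferon-stimulated genes, with a median of -0.55 over all 28. *Gzma*, a granule protease, was lower too, at 44.1 CPM against 113.

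The genes higher than in cluster 4 were led by a folate receptor. *Izumo1r*, which encodes it, was at 121 CPM (110 to 133) in cluster 5 and 55.0 in cluster 4, with 183 in cluster 7 and 139 in cluster 3. *Lef1*, a factor of naive and memory cells, was at 170 CPM (157 to 185) against 107, and *Satb1*, a chromatin organizer of early T cells, at 60.6 against 33.7. *Nr4a2* was at 52.0 CPM against 28.4 and *Tox* at 92.7 against 54.5. Others were *Ramp1*, a subunit of the receptor for a nerve peptide (63.7 CPM against 30.6), the protease inhibitor *Ctla2a* (139 against 74.1) and the phosphodiesterase *Pde3b* (52.3 against 29.5). For *Izumo1r*, *Lef1*, *Satb1* and *Ctla2a*, clusters 3 and 7 both exceeded cluster 5, which lay between them and cluster 4.

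Against cluster 2, cytotoxic genes set the clusters apart. Of 2823 genes compared, 82 (2.90%) were at least 1.5-fold higher in cluster 5 and 30 (1.06%) lower. Of 12 compared cytotoxic genes, 9 were lower and none higher, and the median over all 17 genes of the list was -1.03. The chemokine *Ccl5* was at 3016 CPM (2959 to 3074) in cluster 5 and 12040 in cluster 2, with 18451 in cluster 9, 5054 in cluster 1, 4814 in cluster 4, and 637 to 2724 in the others. *Ccl4* was at 48.6 CPM against 322, *Gzmb* at 11.4 against 96.3, *Gzma* at 44.1 against 137, and the residency chemokine receptor *Cxcr6* at 30.4 against 103. *Gzmk*, named after its values were seen, was at 140 CPM against 360 in cluster 2 and 137 in the rest of the library. Over the rest as a whole, the list had 2 of 10 lower (*Gzma* and *Ccl4*), none higher. The median was -0.15 over all 17 genes and 0.03 over the 10 compared, so its sign depends on the low genes.

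Genes of lymph node homing and memory went the other way. Of 16 compared memory and naive genes, 8 were at least 1.5-fold higher than in cluster 2 and none lower, and the median over all 18 genes was 0.61. *Ccr7*, a chemokine receptor that guides cells into lymph nodes, was at 179 CPM against 92.9, and *Lef1* at 170 against 74.6. Yet cluster 5 was not high for these genes in the library. *Lef1* was at 370 CPM in cluster 3 and 250 in cluster 7, and the rest of the library stood at 174 CPM. Over the rest 3 of 16 were higher (*Il7r*, *Il6ra* and *Dtx1*) and none lower, with a median of 0.20 over these 16 and 0.098 over all 18. Without clusters 6, 8, 10 and 11 1 of the 3 calls was kept and the median over all 18 was -0.003. *Dtx1*, a regulator of Notch signals, was the highest of the 11 clusters, at 173 CPM against 110 in the rest.

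**Figure D4:**
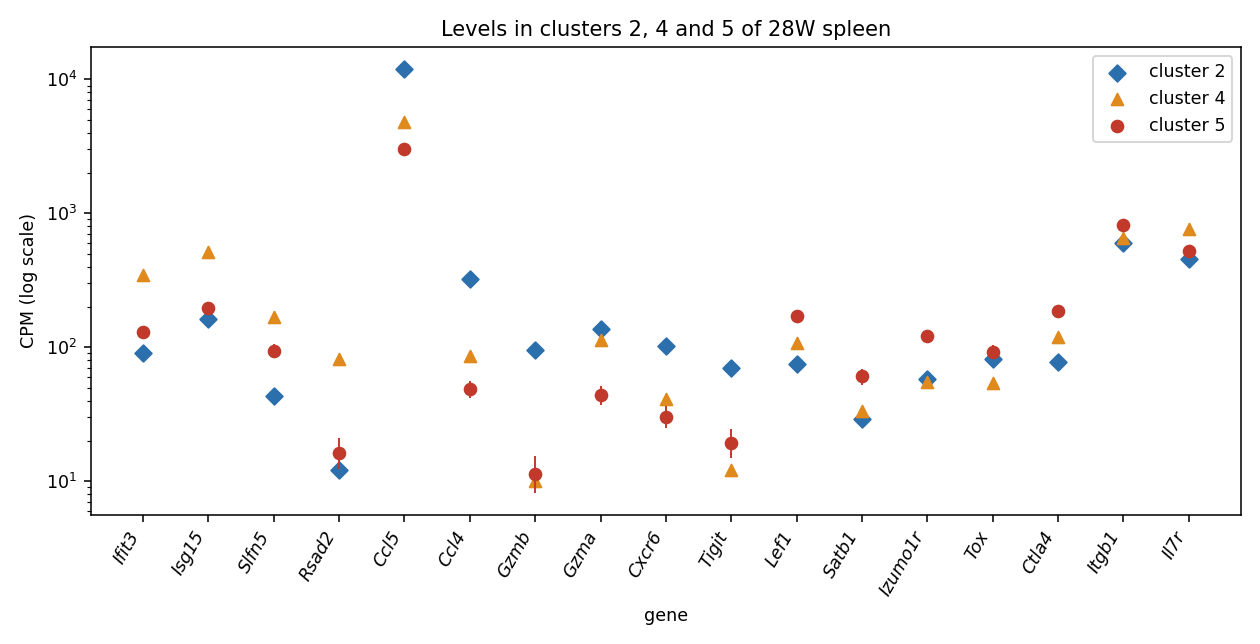
Levels of 17 genes (CPM, log scale) are shown for clusters 2, 4 and 5, with exact Poisson 95% intervals for cluster 5. Cluster 5 lay below cluster 4 for *Ifit3* (130 against 345) and *Isg15*, below cluster 2 for *Ccl5* (3016 against 12040) and *Gzmb*, and above both for *Lef1*, *Izumo1r*, *Ctla4* and *Itgb1*.

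Among the NF-kB and AP-1 genes, *Tnfaip3* (A20), which ends NF-kB signaling, was at 200 CPM (185 to 215) in cluster 5, 176 in cluster 4, 150 in cluster 2, 910 in cluster 11 and 34.7 to 139 elsewhere. *Klf6* was at 317 CPM against 206 in the rest. These were the 2 of 16 compared genes past 1.5-fold, with none lower, and neither call was kept against an unweighted mean. *Junb* was at 1069 CPM against 861 and *Fos* at 507 against 453. The median over all 23 genes, 0.11, turned to -0.057 with an unweighted mean of clusters, in which cluster 11 weighs as much as any other.

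The remaining 20 highest genes were mixed in function. The nuclear RNA *Malat1* was at 5023 CPM (4949 to 5098) in cluster 5, 4763 in cluster 3, 3821 in cluster 4 and 17888 in cluster 11, against 2907 in the rest. *Ppp1r12a*, a subunit of myosin phosphatase, was at 384 CPM against 201, the calcium pump *Atp2b4* at 53.2 against 24.6, and *Nrp1*, a semaphorin receptor, at 50.04 against 23.3. *Rbl2*, a pocket protein of resting cells, was at 93.0 CPM against 49.9. Of these 20 genes, 16 were exceeded in cluster 11 alone and none was highest of all 11 clusters.

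Genes that did peak in cluster 5 numbered 53 of 2812, and their margins were small. The helicase *Ddx5* was at 1427 CPM (1387 to 1467) against 672 to 1278 in the other clusters. *Lcp2* (SLP-76), an adaptor of the T cell receptor, was at 219 CPM (204 to 235) against 85.3 to 195. *Clint1*, *Ccng1*, *Elf4*, *Gm28901*, *N4bp2l1*, *Qrich1* and *Rnf44* were the other leading genes of this kind. Lowest of all clusters were only *Stmn1*, *Dctn2* and *Tufm*. Among the 8 clusters without 8, 10 and 11, cluster 5 was highest for 484 genes and lowest for 46.

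Transcripts of dividing cells were low in cluster 5. *Stmn1*, a tubulin regulator of cycling cells, was at 11.1 CPM (7.89 to 15.2), against 12.4 in cluster 4, 13.7 in cluster 1, 25.5 to 105 in 7 further clusters and 569 in cluster 6. The interval includes the levels of clusters 4 and 1, so its lowest rank is not settled. *Pclaf* was at 4.83 CPM against 94.7 in the rest and *Rrm2* at 2.56 against 52.4. Of 12 compared proliferation genes 10 were at least 1.5-fold lower than the rest and none higher, and the median was -1.35 over all 17 genes of the list. Without clusters 6, 8, 10 and 11 that median was -0.016, and none of the 5 genes then compared was past 1.5-fold.

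Growth genes showed the same dependence. Of 15 migration and growth genes 9 were lower than the rest and none higher, with a median of -0.61 that went to -0.094 without clusters 6, 8, 10 and 11, where none of the 9 calls was kept. *Xcl1*, a chemokine for cross-presenting dendritic cells, was at 47.5 CPM in cluster 5 against 584 in cluster 6 and 547 in cluster 8, and at 15.9 to 148 in the others. *Ran*, which drives nuclear transport, was at 254 CPM against 486 in the rest and *Srm*, of polyamine synthesis, at 27.6 against 83.3. Of 10 compared glycolysis genes, *Tpi1* and *Pgk1* were lower and none higher, with a median of -0.22 over all 14 genes that turned to 0.037 without those 4 clusters, where neither call was kept. Heat shock genes had a median of -0.083 and survival and death genes of -0.011, with none past 1.5-fold among 9 and 6 compared.

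The smaller lists varied around the library. Innate-like memory genes had a median of 0.35 over all 11 genes, with *Itgb1* and *Il18r1* higher and *Xcl1* lower among 10 compared. Of the genes of residency, 1 of 2 compared, *Rgs1* (194 CPM against 119), was higher. Chemokine receptors had none past 1.5-fold among 2 compared, with *Cxcr3* at 235 CPM against 163. Among 5 compared cytokine genes *Xcl1* was lower and none higher, and *Ifng* was at 93.0 CPM (83.2 to 104) against 59.9. The Sox4 and Myb list had *Themis* higher and *Myb* and *Itm2a* lower among 6 compared, and *Sox4* was at 4.83 CPM against 28.4. The higher calls of *Rgs1* and *Themis* were kept neither without clusters 6, 8, 10 and 11 nor against an unweighted mean.

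The marker lists of other cells summed to between 0.569 and 386 CPM. Summed B cell markers were at 204 CPM, with 6 of 13 genes at 0 UMIs (*Ms4a1* and *Fcmr* among them) and the sum made up mainly of *Ighm* (158 CPM) and *Cd79b* (41.2 CPM). In the other clusters that sum ran from 171 to 9380 CPM. Plasma cell markers summed to 45.5 CPM (25.03 to 7845 elsewhere), with *Jchain* at 3.41 CPM, and 3 of 6 at 0. Neutrophil markers summed to 0.569 CPM with 4 of 6 at 0, and *Lyz2* and *Cd79a* had 0.853 and 0.569 CPM. Myeloid markers summed to 196 CPM (143 to 7980 elsewhere), of which *Cst3* made up 165, and 2 of 12 were at 0. The dendritic cell sum of 386 CPM was nearly all *Bst2*, also an interferon-stimulated gene, with 5 of 7 at 0, and was the third sum of 11. Erythroid markers summed to 88.7 CPM (10.7 to 41087 elsewhere), the second sum of 11, of which *Car2* made up 51.2 (27.8 in the rest, the 1 erythroid gene past 1.5-fold upward), with 4 of 8 at 0. Haemoglobin *Hbb-bs* was at 18.8 CPM, and without clusters 8, 10 and 11 its log2 ratio over the rest was 0.92 and that of *Hba-a1* 0.63. MHC class II genes, with *Cd74*, summed to 118 CPM (89.2 to 28779 elsewhere), and 2 of 9 were at 0.

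Natural killer markers summed to 52.6 CPM (45.3 to 60.8), of which *Gzma* made up 44.1, with 2 of 7 at 0. This was the lowest sum of the 11 clusters, against 54.1 to 1233 elsewhere. Its interval includes the 54.1 of cluster 7, so the rank is not settled. Natural killer receptor genes on T cells summed to 185 CPM (150 to 1297 elsewhere), with 4 of 17 at 0. Gamma delta T cell markers summed to 17.1 CPM (11.9 to 178 elsewhere) and platelet markers to 1.71 CPM. Genes of CD4+ and regulatory T cells summed to 25.6 CPM, with a counting interval of 20.6 to 31.5 and 5.15 to 65.0 elsewhere. This was the second sum of 11, but the interval includes cluster 10 (24.6) and cluster 2 (23.2), so that rank is not settled either. *Foxp3* was at 8.53 CPM (5.76 to 12.2) and *Cd4*, named after its values were seen, at 0.284 CPM, or 1 UMI. The part of these cells in any result was not tested.

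Among T cell receptor V segments, *Trbv13-2* took 21.5% of its 6587 beta chain V UMIs (20.5 to 22.5%, exact binomial), with 10.5 to 20.8% in the other clusters. That interval takes UMIs as independent, but they came from 614 cells, and UMIs of the same cell mostly share a segment. It is therefore too narrow, and the rank of cluster 5 for this segment was not tested. *Trbv13-1* took 16.9% (8.57 to 34.0% elsewhere) and *Trbv1* 14.2%. For the alpha chain, *Trav3-3* took 10.96% of 2737 UMIs, *Trav5-4* 5.19% and *Trav13-1* 4.79%. The effective number of segments, the inverse of their summed squared shares, was 8.12 for beta against 6.06 to 9.36 in the other clusters, and 30.6 for alpha against 14.6 to 35.7. The 14.6, in cluster 10, rests on 98 UMIs. Segments of high sequence identity can share reads, and the counts do not give cells per segment.

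Clusters of the other libraries were compared by their ratio to the rest of their own library, over the same 2812 genes, since the tables were normalized separately. In the 12W spleen, clusters 1 and 2 were most like cluster 5, with Pearson correlations across genes of 0.77 and 0.68. By Spearman's rho cluster 8 (0.69) stood between cluster 1 (0.72) and cluster 2 (0.63). In this 12W cluster 8 *Itgb1*, *Ctla4* and *Itga4* were 2.40, 2.14 and 3.08 above the rest of its library on the log2 scale. The same cluster had only 928 UMIs per cell and a mitochondrial share of 8.98%. Cluster 11 of the 28W spleen was set aside for such a share. In the 28W kidney cluster 3 was most like cluster 5, at 0.81, followed by clusters 9 and 10, both at 0.74. By Spearman's rho cluster 3 (0.75) was followed by clusters 10 (0.67), 2 (0.65), 6 (0.56) and 9 (0.54). Kidney cluster 2 also had few UMIs per cell (1200) and a high mitochondrial share (10.8%). Genes are not independent replicates, and dividing cells within each rest enter every value. *Itgb1* was at 78.3 CPM in 12W cluster 1 and 502 in 12W cluster 2, and its 12W levels ran from 50.2 to 664. In the kidney it ran from 254 to 727 CPM, with 727 in cluster 3. *Ctla4* was at 40.4 and 53.7 CPM in those 12W clusters and 33.8 CPM in kidney cluster 3, below the 188 CPM of cluster 5. The highest *Ctla4* levels there were 172 CPM in 12W cluster 8 and 213 in kidney cluster 8. *Ccl5* was at 830 and 8055 CPM in the 12W clusters 1 and 2 and at 11172 in kidney cluster 3, against 3016 in cluster 5.

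**Figure D5:**
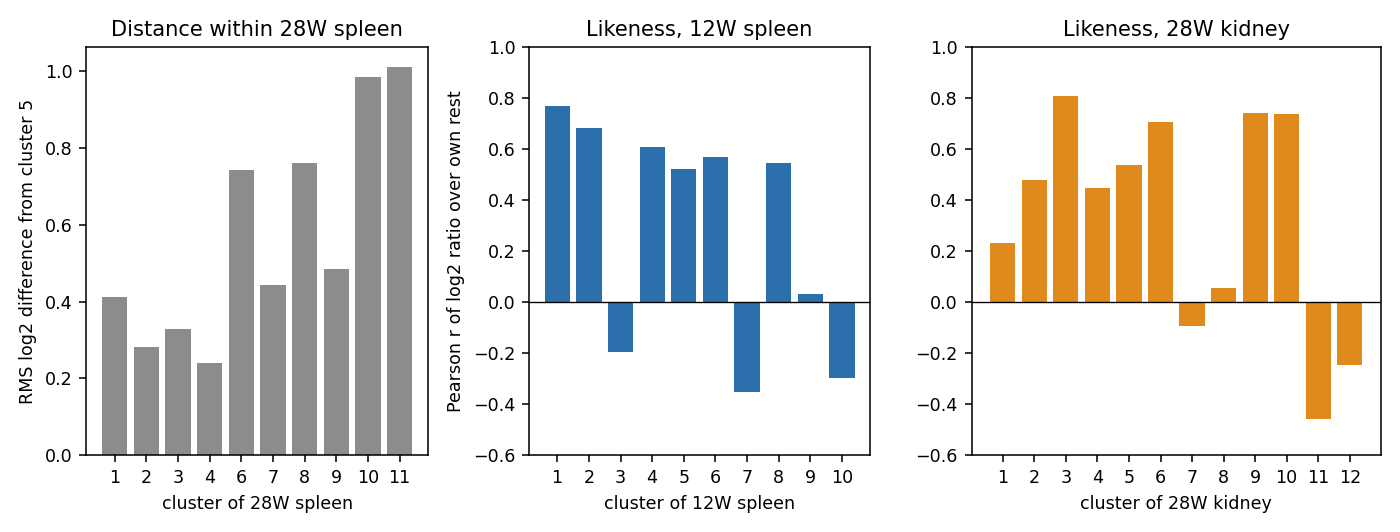
The left panel gives the RMS difference of log2(CPM + 10) between cluster 5 and each other cluster of the 28W spleen, lowest for cluster 4 at 0.24. The other panels give the Pearson correlation across 2812 genes of the log2 ratio over the own library's rest, highest at 0.77 for cluster 1 of the 12W spleen and 0.81 for cluster 3 of the 28W kidney.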

How the data were processed

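PD-1+CD44+CD8+ T cells were sorted and libraries made with 10x Genomics 5′ chemistry. The authors used Cell Ranger, and the submitters' processing notes name Cell Ranger 2.1.1, R 3.6.1 and GRCm38. For each library they deposited the cluster of every barcode and, per gene and cluster, a mean count, which is a normalized signal. Their fold changes and p-values, also in the tables, were not used. Each column of the deposited signal held whole multiples of 1 step, taken as 1 UMI (tolerance 0.001), and UMIs were rescaled to CPM.

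Ratios were taken on log2(CPM + 10), over genes with at least 50 CPM on either side, without V, D and J segments, and called at 1.5-fold. CPM intervals are exact Poisson, shares exact binomial, ratio intervals exact conditional Poisson, all at 95%. GENCODE M21 matched 16182 of 16194 identifiers. On simulated data the recovery gave back the counts by construction, so it does not show that the deposited step is 1 UMI. Python 3.11.15, pandas 2.3.3 and scipy 1.17.1 were used.

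Named genes were the 20 highest and 15 lowest against the rest, 10 at the extremes of the clusters, 8 each way against clusters 4 and 2, up to 5 of the most changed per list, the sort markers and the leading markers of other cell types. Other list members named in the text were chosen after their values were seen. The members and the 35 lists were chosen with earlier results of these data known. Some genes are not reported here.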

Additional observations from a re-analysis of the deposited data

How the results depend on the processing

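Settings were changed singly, and list medians are over all genes of a list. With a pseudocount of 1 CPM, 176 genes were higher and the cytotoxic and proliferation medians were -0.45 and -1.76. Scaling by the median gene ratio left 59 higher genes and a CD29 median of 0.11. An unweighted mean of the other clusters left 34 higher genes, with medians of -0.33 (cytotoxic), -0.44 (migration and growth), -0.057 (Junb and NF-kB) and -0.91 (proliferation). Leaving receptor, mitochondrial and ribosomal genes out of the total gave 123 lower genes. A minimum of 20 CPM gave 138 lower genes and no minimum 230. At 2-fold, 2 genes were higher and 28 lower. Without clusters 6, 8, 10 and 11, a setting added after seeing the data, 40 genes were higher and 7 lower, and the interferon, CD29, migration and growth, and proliferation medians were 0.26, 0.029, -0.094 and -0.016. The nearest cluster was 4 by both measures.

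Of 74 named genes past 1.5-fold, 74 stayed past it with a pseudocount of 1 CPM, 69 with the reduced total, 63 with the median ratio, 46 with the unweighted mean, 62 without clusters 8, 10 and 11 and 27 without cluster 6 as well. Signs turned positive in both of the last settings for *Cst3* (0.099, 0.015), *H2-Ab1* (0.086, 0.14), *H2-Eb1* (0.16, 0.27), *Hba-a1* (0.63, 0.57), *Hbb-bs* (0.92, 0.81) and *Hbb-bt* (0.55, 0.50). In the last alone they turned for *Cd74* (0.0061), *H2-Aa* (0.093), *Hist1h2ap* (0.20), *Hmgb2* (0.28), *Pclaf* (0.16) and *Tpi1* (0.035).

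No paired analysis was possible because the tables pool the 4 labelled samples of each group, and for the same reason no replicate was left out. Counting error is the only error measured. With 3516835 UMIs it limits low genes of cluster 5 to a floor of 0.853 CPM, and variation between mice is unknown.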

Other observations

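Genes higher in cluster 5 than in the rest of the library were long. Their median genomic length, from start to end of the gene in GENCODE M21, was 64.4 kb, against 18.1 kb for all 2812 compared genes and 5.36 kb for the lower genes. Across genes, which are not independent replicates, Spearman's rho between length and log2 ratio was 0.48 over the rest, 0.51 without clusters 6, 8, 10 and 11, and 0.31 against cluster 4. The higher genes against cluster 2 had a median length of 65.6 kb and the lower genes 6.92 kb.

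Transcripts of nuclear genes of the respiratory chain took 1.99% of UMIs in cluster 5, against 3.02% in cluster 6 and 0.925% in cluster 11. T cell receptor transcripts took 0.348%, between 0.290% in cluster 4 and 0.390% in cluster 2. *Il2*, the growth factor of T cells, was at 5.12 CPM (3.03 to 8.09) in cluster 5, the highest of the 11 clusters, against 1.26 CPM in the rest, and was below the minimum for comparison. The limit that a count of 0 allows is 7.82, 6.87 and 10.8 CPM in clusters 8, 9 and 11. The rank of cluster 5 against these clusters is therefore not settled.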
